A study of Mus musculus with 9 samples.

Results

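The 5 genes described here, *Map4k4*, *Il1r1*, *Il1rl1*, *Il18r1* and *Il18rap*, lie next to each other on mouse chromosome 1 and were taken from the 14108 genes counted in each of 9 primary mammary tumours. They were chosen as neighbours from earlier results of these tumours, to be compared in each tumour, and above all in the HR1 tumour numbered 3, with the rest. The values of the HR1 tumours therefore entered the choice, and the differences among the HR1 tumours are given as a description with no test. The rule names no comparison of LM9 with LM1 tumours, which was tested, but the genes were chosen with earlier results of all 9 tumours known, so its p-values are not free of that choice.

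The study compared a mouse mammary cancer line with lines derived from its metastases. HR1 (LB-mHR1) came from a mammary tumour of a transgenic mouse that expressed mutant *PIK3CA* from the ubiquitous CAG promoter, and did not metastasize. The labels do not say whether the HR1 tumours grew from the parental line or from its transfected control cells. LM1 and LM9 are lines grown out of lung metastases that arose from HR1 cells carrying a *piggyBac* transposon with a doxycycline-inducible transposase. In all 3 models, 250000 GFP-labelled cells in Matrigel and PBS were placed in the mammary fat pad of female NOD/SCID mice aged 4 to 8 weeks. These mice lack mature T and B cells but keep innate leukocytes. Tumours were resected, their GFP-positive cells were collected by sorting, and mRNA libraries that keep the strand were sequenced from 1 end, with 3 tumours for each model. Tumours are called HR1_1 to HR1_3, LM1_1 to LM1_3 and LM9_1 to LM9_3. The labels do not say whether tumours of a model came from separate cultures of the line, so the spread given is that between these tumours.

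The proteins encoded in the block belong mainly to the interleukin-1 receptor family. IL1R1 binds IL-1α and IL-1β, IL1RL1 (also called ST2) binds IL-33, and each recruits the shared partner chain IL1RAP. IL18R1 binds IL-18 and recruits IL18RAP. All of these complexes signal through MYD88, IRAK kinases and TRAF6 to NF-κB and MAP kinases, and they are best known from mast cells, innate lymphoid cells, NK cells, T cells and, for IL1R1, stromal and epithelial cells. *Map4k4* encodes a serine/threonine kinase upstream of JNK and the Hippo kinases and is unrelated in sequence to the receptors.

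Expression is given in CPM, the read counts of a gene scaled for library size by the TMM method. Total counts lay between 32393958 and 46681945 per tumour, and 3 counts corresponded to less than 0.1 CPM in each of them. The tumour labelled HR1_1 stood apart. Its *Nfib*, by which the study classes HR1 as low-expressing and LM1 and LM9 as high-expressing, was at 1343 CPM, against 23.86 and 18.27 CPM in HR1_2 and HR1_3 and 420.6 to 791.3 CPM in the 6 LM tumours. The mean chi-square per gene was 661.9 between HR1_1 and HR1_2 and 614.3 between HR1_1 and HR1_3, against 164.4 between HR1_2 and HR1_3. Whether this tumour is what its label says was not tested, and it enters each HR1 mean and the spread shared by the models. Values without HR1_1 are therefore given beside the block genes and the list counts below, and beside the fold changes of other genes against HR1 where a log2 fold change moved by 0.3 or more. Markers of the labelled tissue were sparse. *Krt8* and *Krt7* were not among the counted genes, *Epcam* reached at most 4.489 CPM and *Cdh1* at most 1.197 CPM, while *Krt14* lay between 1.563 CPM (HR1_1) and 175.0 CPM (LM1_1). All 7 fibroblast genes examined were detected, with summed levels of 22040 to 35160 CPM in HR1, 10360 to 13780 CPM in LM1 and 8971 to 10530 CPM in LM9. Collagens led these sums except in HR1_1, where *Dcn* (decorin) was at 17610 CPM, against 432.4 and 329.3 CPM in HR1_2 and HR1_3.

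The 5 genes span 650.8 kb (mm10, chr1:39900902-40551707) and all are on the plus strand. *Map4k4* (chr1:39900902-40026310) comes first, followed by *Il1r1* (chr1:40222480-40316201), *Il1rl1* (chr1:40404864-40465418), *Il18r1* (chr1:40465552-40500854) and *Il18rap* (chr1:40515362-40551707). Only 133 bases separate the end of *Il1rl1* from the start of *Il18r1*, and 14507 bases separate *Il18r1* from *Il18rap*. No exon of the 5 genes overlaps an exon of another gene in the GENCODE annotation. Of the 5 further annotated genes between them, *Il1r2* (the IL-1 decoy receptor) and *Il1rl2* (the IL-36 receptor) were counted, and *Gm16894*, *Gm35741* and *Gm17970* were not among the counted genes. *Il1r2* averaged 0.649 CPM in HR1, 0.5501 CPM in LM1 and 0.2891 CPM in LM9, and *Il1rl2* averaged 0.1752, 0.3397 and 0.08715 CPM. Both were thus under 1 CPM in each model, unlike the 5 genes around them.

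*Il1rl1* was the most variable of the block's abundant genes in HR1. Its level was 5.885 CPM in HR1_1, 439.4 CPM in HR1_2 and 1438 CPM in HR1_3. LM1 tumours had 489.9, 557.3 and 673.6 CPM, and LM9 tumours had 338.6, 299.9 and 465.4 CPM. HR1_3 was thus the highest of the 9 tumours, 2.135 times the next (LM1_3), and HR1_1 was the lowest, 50.95 times below the next lowest (LM9_2). The other 7 tumours lay between 299.9 and 673.6 CPM, with HR1_2 inside the LM9 range and all LM1 tumours above all LM9 tumours (65.4% of genes had no overlap between LM9 and LM1). The counts cover the exons of every isoform, so the membrane receptor and the soluble IL-33 decoy made from the same gene cannot be told apart.

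*Il18rap*, the partner chain of the IL-18 receptor, was at 0.7647 CPM in HR1_1, 61.22 CPM in HR1_2 and 66.59 CPM in HR1_3. The LM1 tumours had 68.03, 75.00 and 73.08 CPM and the LM9 tumours had 91.57, 74.99 and 102.0 CPM. HR1_1 was thus 80.05 times below the next lowest tumour, and the other 8 tumours lay within a narrow range in which LM1 and LM9 met at one end.

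*Il18r1*, the IL-18 binding chain, rested on 1 count in HR1_1, 49 counts in HR1_2 and 73 counts in HR1_3, or 0.03325, 1.103 and 1.878 CPM. LM1 tumours had 11.91, 11.96 and 13.11 CPM, and LM9 tumours had 122.3, 109.3 and 143.0 CPM. The models were separated without overlap in the order HR1, LM1, LM9 (as were 46.6% of genes for LM1 and HR1, 54.9% for LM9 and HR1 and 65.4% for LM9 and LM1), and the spread within LM1 and LM9 was small beside the steps between them. The ratio of HR1_2 to HR1_1 was 33.18 (95% exact interval 5.683 to 1337, counting error only) and that of HR1_3 to HR1_1 was 56.49 (9.826 to 2262). These intervals describe how imprecise a ratio over 1 count is and are no test between the tumours, since HR1 tumours entered the choice of the genes.

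*Il1r1*, the signalling receptor for IL-1, behaved differently from its 3 relatives. It was at 48.68, 42.69 and 55.81 CPM in HR1, 37.55, 38.60 and 31.17 CPM in LM1 and 35.20, 23.53 and 30.58 CPM in LM9. All HR1 tumours were above all LM tumours, HR1_1 included (46.6% of genes had no overlap for LM1 and HR1, and 54.9% for LM9 and HR1), and LM1 and LM9 overlapped. The highest tumour (HR1_3) was only 2.372 times the lowest (LM9_2).

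*Map4k4* was at 105.1, 189.3 and 157.1 CPM in HR1, 304.0, 361.7 and 226.9 CPM in LM1 and 355.7, 323.3 and 275.0 CPM in LM9. It was lower in every HR1 tumour than in every LM tumour (46.6% of genes had no overlap for LM1 and HR1, and 54.9% for LM9 and HR1), and LM1 and LM9 overlapped. HR1_1 was again the lowest tumour, 1.495 times below HR1_3.

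**Figure D1:**
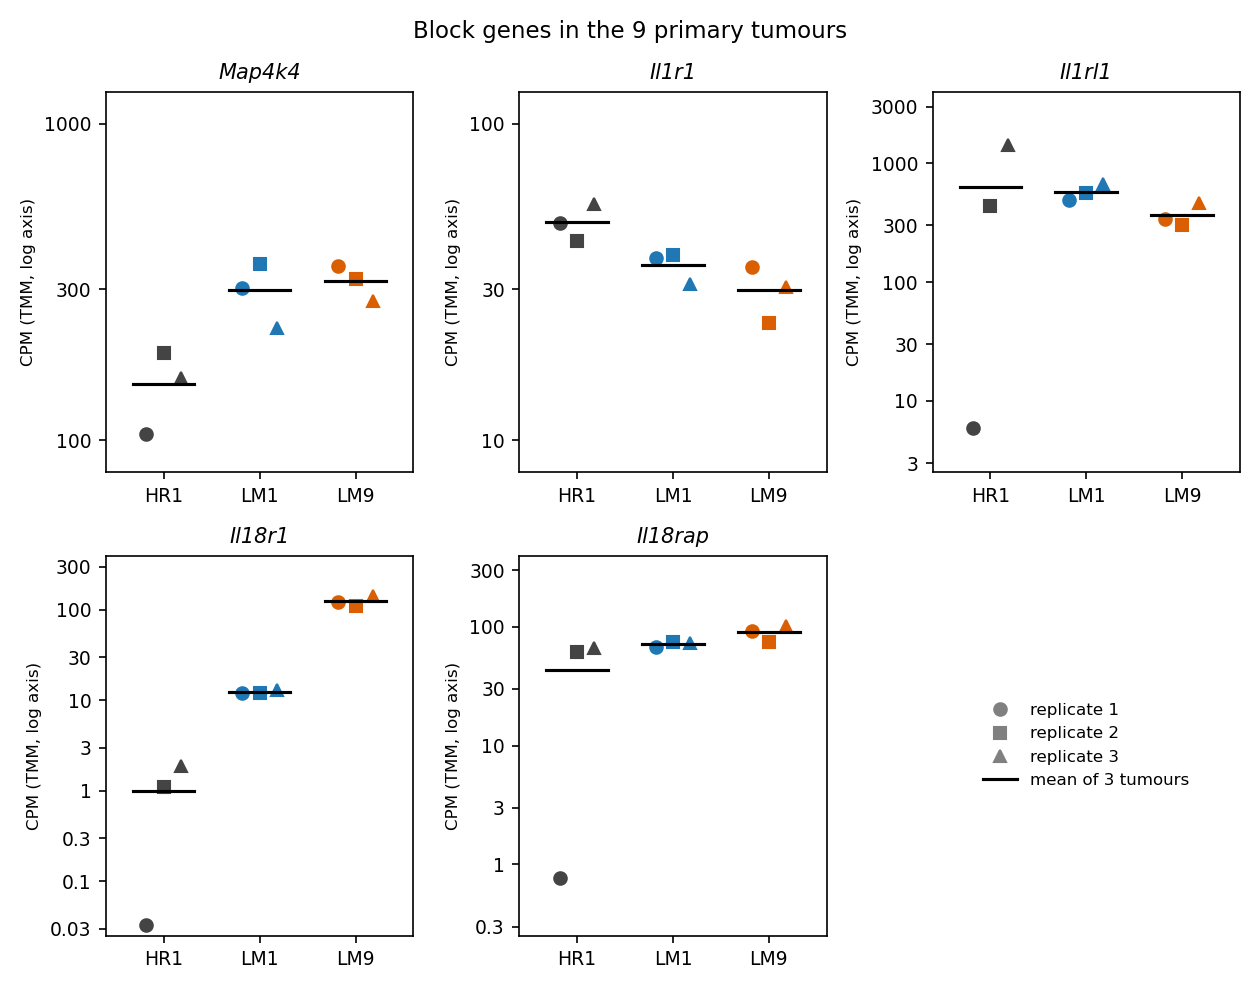
Normalized expression of the 5 block genes in each tumour (points, CPM on a log axis, with a scale of its own for each gene), with the mean of the 3 tumours of a model as a line. HR1_1 (circle) falls far below all other tumours for *Il1rl1* (5.885 CPM), *Il18r1* (0.03325 CPM) and *Il18rap* (0.7647 CPM), HR1_3 (triangle) is the highest only for *Il1rl1* and *Il1r1*, and *Il18r1* steps up from HR1 to LM1 to LM9.

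Compared with the mean log2 level of the other HR1 tumours (CPM with 0.1 added), HR1_3 was higher by a log2 ratio of 4.81 for *Il1rl1*, 3.20 for *Il18rap* and 2.30 for *Il18r1*, and by 0.29 for *Il1r1* and 0.16 for *Map4k4*. Much of this rested on HR1_1. Against HR1_2 alone, the log2 ratios of HR1_3 were 1.71 for *Il1rl1*, 0.72 for *Il18r1*, 0.39 for *Il1r1*, 0.12 for *Il18rap* and -0.27 for *Map4k4*. Against the mean of the 8 other tumours, *Il1rl1* (2.45), *Il1r1* (0.66) and *Il18rap* (0.60) remained positive, and *Map4k4* was at -0.67 and *Il18r1* at -2.66. Only 1 of the 5 genes, *Il1rl1*, was at least 2-fold higher in HR1_3 than in both other HR1 tumours, where 2.24% of the 12377 genes averaging 1 CPM or more were. Nothing is read from this count, since HR1_3 entered the choice of the genes.

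The larger departure was that of HR1_1. Its log2 ratio to the other HR1 tumours was -7.05 for *Il1rl1*, -6.21 for *Il18rap* and -3.53 for *Il18r1*, against -0.71 for *Map4k4* and no difference to 2 decimals for *Il1r1*. The size for *Il18r1* rests on 1 count and on the 0.1 CPM added, and became -1.25 with 1 CPM added and -7.04 against the 8 other tumours. These 3 of the 5 genes were at least 2-fold lower in HR1_1 than in both other HR1 tumours, as were 11.4% of the genes averaging 1 CPM or more. HR1_1 had the lowest level of all 9 tumours for these 3 genes and *Map4k4* (24.1% of genes), by at least 2-fold for the 3 (5.8% of genes). In the LM tumours, by contrast, no block gene departed from the other tumours of its model by a log2 ratio beyond -0.55 (*Map4k4* in LM1_3) or 0.55 (*Il1rl1* in LM9_3).

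The genes around the block were examined for the same differences. Of the 35 other counted genes within 3 Mb, 28 averaged 1 CPM or more. None of the 28 was at least 2-fold higher in HR1_3 than in both other HR1 tumours (2.24% of all genes averaging 1 CPM or more were), and their median log2 ratio was -0.03. In HR1_1 only *Fhl2*, at 2571.4 kb from the block, was at least 2-fold lower than in both others (11.4% of all genes averaging 1 CPM or more were), and the median log2 ratio was -0.19. With 28 genes, counts this small do not set the neighbours apart from other genes. The nearest expressed genes upstream were *Creg2*, *Rnf149* and *Cnot11*, and those downstream were *Slc9a2*, *Mfsd9* and *Mrps9*. *Creg2* was at 4.888 CPM in HR1_1, 0.4278 CPM in HR1_2 and 0.02573 CPM in HR1_3, the reverse order of *Il1rl1*. *Rnf149* (log2 ratio -0.34 in HR1_1 and -0.15 in HR1_3) and *Cnot11* (0.09 and -0.03) were close to level. *Slc9a2* (1.07 and -1.55), *Mfsd9* (0.73 and -0.38) and *Mrps9* (-0.27 and -0.01) did not share the deficit of HR1_1 either. Below a mean of 1 CPM, *Il1r2* inside the block (0.2327, 0.9681 and 0.7462 CPM in HR1_1, HR1_2 and HR1_3, log2 ratio -1.51) and *Slc9a4*, the next gene after *Il18rap* (0, 0.1801 and 0.2573 CPM, -1.66), were also at least 2-fold lower in HR1_1, and *Il1rl2* was higher there (1.14). *Rfx8*, *Cnga3* and *4930594C11Rik*, further upstream, were low in HR1_1 as well, with log2 ratios of -0.76 to -1.33, and *Rfx8* was also at least 2-fold higher in HR1_3 than in both others (0, 0.09006 and 0.2316 CPM, log2 ratio 1.27). Among genes averaging 1 CPM or more, the low values of HR1_1 near the block were those of the 3 adjacent genes *Il1rl1*, *Il18r1* and *Il18rap*, while *Il1r1*, the nearest such gene before them, was level.

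**Figure D2:**
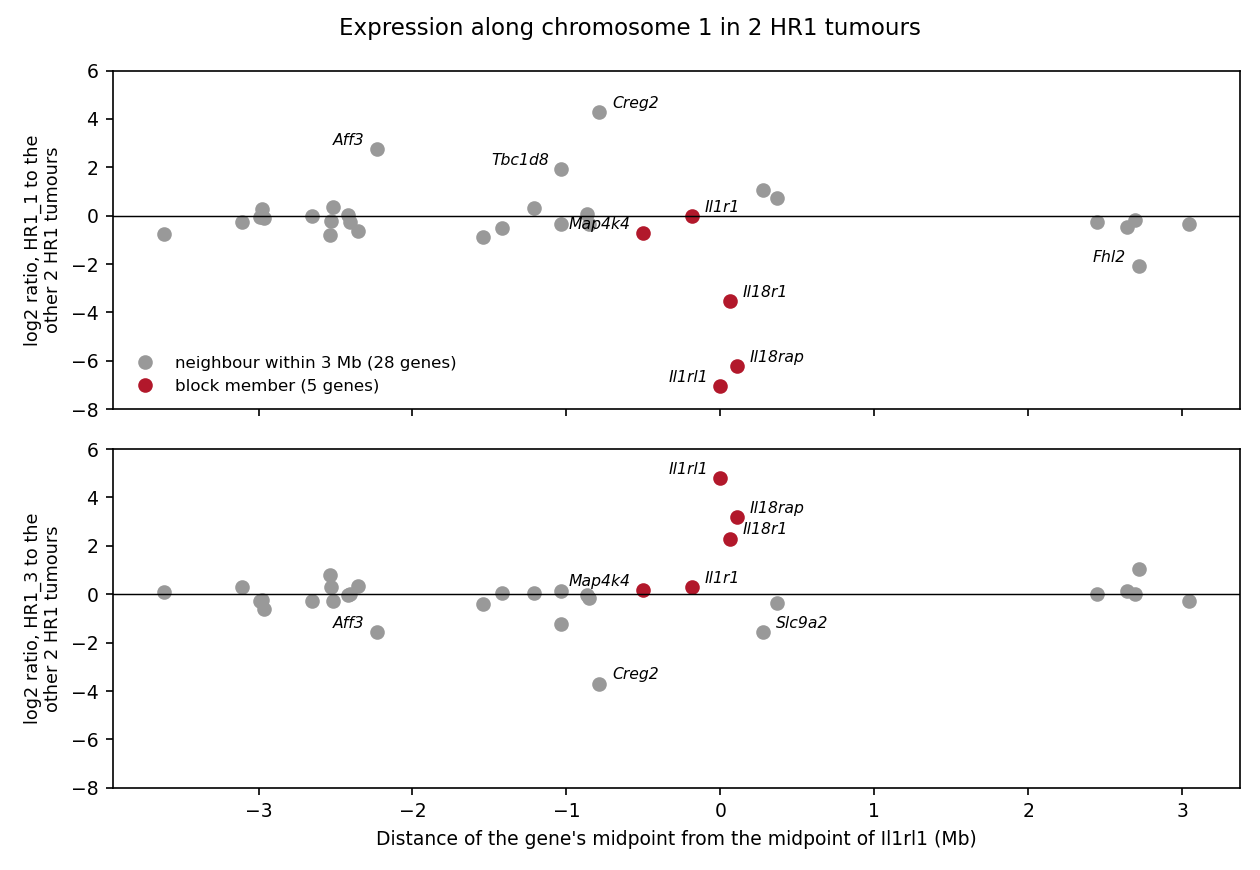
Log2 ratio of HR1_1 (top) and of HR1_3 (bottom) to the mean log2 level of the other HR1 tumours, for the 5 block genes (red) and 28 neighbours within 3 Mb (grey). The horizontal axis gives the distance of the gene's start from the start of *Il1rl1* in Mb, although its label names midpoints. In HR1_1 *Il1rl1* (-7.05), *Il18rap* (-6.21) and *Il18r1* (-3.53, from 1 count) fall below the neighbours, *Creg2* (4.28) lies above them, and *Map4k4* and *Il1r1* stay near 0 in both tumours.

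The promoter windows of the 3 genes with low values in HR1_1, and of *Il1r1* as the neighbour with an even level, are shown because the members moved together or apart across a short stretch of the chromosome. They were taken from RefSeq (GRCm38.p6, 250 bases before to 50 bases after an annotated start site, plus strand), where 4 of the 5 genes had 8 windows in all. *Il1rl1* has 2 windows, a distal one at chr1:40429320-40429619 and a proximal one at chr1:40439379-40439678, both of which lie after the gene start given above. *Il18r1* is shown at 2 of its 3 windows, an upstream one at chr1:40465371-40465670 and a downstream one at chr1:40465756-40466055, *Il18rap* at chr1:40515112-40515411 and *Il1r1* at the first of its 2 windows, chr1:40224830-40225129. Capitals mark matches, on either strand, to the motifs named below.
Il1rl1, distal: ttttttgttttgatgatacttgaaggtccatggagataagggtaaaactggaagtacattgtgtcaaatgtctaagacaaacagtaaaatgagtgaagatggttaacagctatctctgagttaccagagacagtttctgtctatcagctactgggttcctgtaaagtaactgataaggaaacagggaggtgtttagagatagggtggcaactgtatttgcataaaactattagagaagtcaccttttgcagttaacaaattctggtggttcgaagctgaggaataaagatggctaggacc
Il1rl1, proximal: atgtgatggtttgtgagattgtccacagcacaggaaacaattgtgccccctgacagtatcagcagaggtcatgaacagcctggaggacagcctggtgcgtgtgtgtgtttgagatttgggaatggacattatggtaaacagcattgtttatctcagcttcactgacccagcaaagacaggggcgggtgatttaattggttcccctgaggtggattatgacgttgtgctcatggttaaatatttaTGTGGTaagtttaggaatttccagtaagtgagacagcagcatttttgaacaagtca
Il18r1, upstream: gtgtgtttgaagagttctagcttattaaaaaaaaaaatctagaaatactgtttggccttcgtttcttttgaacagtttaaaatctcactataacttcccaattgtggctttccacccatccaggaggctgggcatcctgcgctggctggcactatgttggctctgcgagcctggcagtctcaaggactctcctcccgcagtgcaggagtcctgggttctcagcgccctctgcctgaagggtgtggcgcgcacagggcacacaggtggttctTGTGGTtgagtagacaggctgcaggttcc
Il18r1, downstream: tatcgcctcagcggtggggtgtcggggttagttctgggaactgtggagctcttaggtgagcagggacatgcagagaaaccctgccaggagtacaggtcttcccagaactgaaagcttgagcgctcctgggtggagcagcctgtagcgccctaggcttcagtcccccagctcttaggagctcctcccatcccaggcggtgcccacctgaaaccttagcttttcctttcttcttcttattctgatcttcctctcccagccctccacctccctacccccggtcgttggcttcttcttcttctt
Il18rap: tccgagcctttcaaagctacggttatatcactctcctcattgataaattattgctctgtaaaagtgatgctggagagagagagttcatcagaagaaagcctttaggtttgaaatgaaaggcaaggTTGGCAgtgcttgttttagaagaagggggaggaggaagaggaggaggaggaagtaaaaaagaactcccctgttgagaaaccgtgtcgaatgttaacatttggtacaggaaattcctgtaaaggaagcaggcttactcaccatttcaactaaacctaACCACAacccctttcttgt
Il1r1: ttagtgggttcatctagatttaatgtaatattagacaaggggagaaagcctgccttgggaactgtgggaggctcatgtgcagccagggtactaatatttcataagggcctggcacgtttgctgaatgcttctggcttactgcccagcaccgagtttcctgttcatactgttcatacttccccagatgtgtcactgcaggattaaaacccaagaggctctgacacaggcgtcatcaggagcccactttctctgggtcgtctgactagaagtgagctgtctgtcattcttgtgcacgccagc

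The motifs were searched on both strands of the windows, and each share below is over 32851 RefSeq windows of the same length. TGTGGT, the core bound by RUNX factors, stood 6 bases before the proximal start of *Il1rl1*, 21 bases after the upstream start of *Il18r1* and, on the opposite strand, 31 bases after the start of *Il18rap*. It is present in 16.76% of all windows and was absent from the distal *Il1rl1* and the downstream *Il18r1* window. The *Il18r1* window not shown (chr1:40465302-40465601), which begins before both of those shown, did not hold it either. TTGGCA, a half-site of the NFI family to which *Nfib* belongs, stood 125 bases before the start of *Il18rap* (14.12% of all windows) and was in neither window of *Il1rl1* nor in those of *Il18r1* shown. No window shown held TGANTCA (AP-1, 7.808% of all windows), TATAAA (the TATA box, 13.62%) or the NF-κB consensus (4.505%). The second *Il1r1* window (chr1:40266336-40266635), not shown, held the NFI half-site 51 bases before its start and an NF-κB match 232 bases before it on the opposite strand. The RUNX core was thus the only 1 of the 5 motifs with a match in a window of each of *Il1rl1*, *Il18r1* and *Il18rap*. GC content ran from 38.67% in the distal *Il1rl1* window to 57.0% in the downstream *Il18r1* window, with a median of 52.67% over all windows. These matches describe the letters only.

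The comparison between the LM models asked how the metastasis-derived lines differ from each other. In an edgeR quasi-likelihood fit over the 3 models, *Il18r1* exceeded its LM1 level in LM9 tumours, with a log2 fold change of 3.34 ± 0.66 (SE, n = 3 tumours each), or 10.13-fold, with a Benjamini-Hochberg adjusted p of 0.01031. The means were 124.9 ± 17.0 CPM (SD, n = 3) in LM9 and 12.33 ± 0.68 CPM in LM1, and all 3 LM9 tumours were above all 3 LM1 tumours (65.4% of genes had no overlap between LM9 and LM1). It was the only 1 of the 5 genes to pass the threshold of 0.05, which 22.0% of the 14086 tested genes passed, 11.5% in the higher direction. The adjusted p of *Il18r1* was 1.203e-08 to 0.02387 under the other settings and 6.025e-06 to 0.05659 with 1 tumour left out. It missed the threshold only without LM1_1, at a log2 fold change of 3.32.

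The other 4 genes did not pass. *Il1rl1* had a log2 fold change of -0.64 ± 1.17 (edgeR adjusted p = 0.7239), *Il18rap* of 0.31 ± 0.98 (adjusted p = 0.8452), *Il1r1* of -0.26 ± 0.18 (adjusted p = 0.3246) and *Map4k4* of 0.10 ± 0.24 (adjusted p = 0.8059). The SEs of *Il1rl1* and *Il18rap* include the spread of the HR1 tumours, because the fit shares its spread over the models. With only the 6 LM tumours, *Il1rl1* was lower in LM9 by 0.65 ± 0.17 (edgeR adjusted p = 0.007132, a threshold that 56.3% of genes passed in that fit) and *Il18rap* was at 0.30 ± 0.12 (adjusted p = 0.05202). Without HR1_1, *Il1rl1* was at -0.65 ± 0.38 (adjusted p = 0.1995) and *Il18rap* at 0.31 ± 0.13 (adjusted p = 0.07429). The call for *Il1rl1* thus depended on whether HR1 tumours set the spread, while its size did not.

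**Figure D3:**
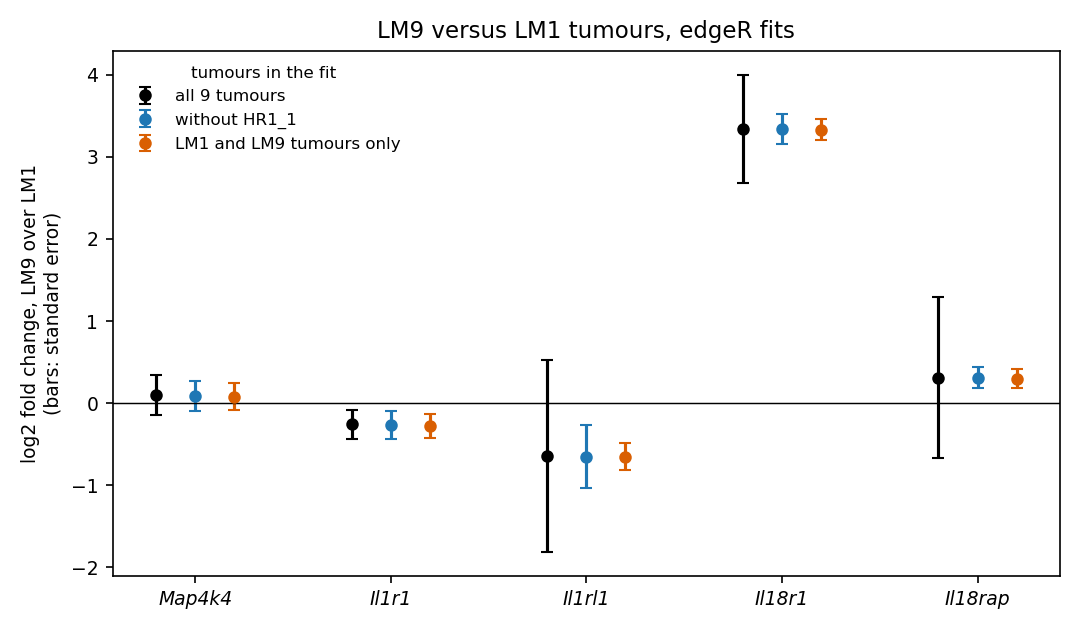
Log2 fold change of LM9 over LM1 tumours for the 5 genes (points, with the SE as bars) from edgeR fits to all 9 tumours, to the 8 without HR1_1, and to the 6 LM tumours. *Il18r1* lies at 3.34, 3.34 and 3.33, the other genes lie within 1 log2 unit of 0, and the bars of *Il1rl1* and *Il18rap* shorten when HR1_1 is left out.

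Of the 28 expressed neighbours within 3 Mb, 3 were higher in LM9 than in LM1 and 5 were lower, against 11.5% and 10.6% of all genes. A pair of sodium/proton exchanger genes downstream of *Il18rap* passed in the direction of *Il18r1*. *Slc9a4*, 28.3 kb from the block, was at 0.1429 ± 0.0766 CPM (SD, n = 3) in LM1 and 1.446 ± 0.106 CPM in LM9, with a log2 fold change of 3.31 ± 0.81 (edgeR adjusted p = 0.02138), and was named after its values were seen. *Slc9a2*, 130.0 kb from the block, was at 2.809 ± 0.524 CPM in LM1 and 10.23 ± 3.12 CPM in LM9, with a log2 fold change of 1.86 ± 0.47 (adjusted p = 0.02386). Among the lower genes were *Rnf149* (-0.76 ± 0.18, adjusted p = 0.02027) and *Cnot11* (-0.55 ± 0.13, adjusted p = 0.01888). *Creg2* (-1.78 ± 1.16, adjusted p = 0.2989), *Mfsd9* (0.69 ± 0.26, adjusted p = 0.08486) and *Mrps9* (-0.38 ± 0.16, adjusted p = 0.1129) did not pass.

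Values of the LM models against HR1 are given without a test for the 5 genes, since HR1 tumours entered their choice. *Il18r1* was higher by a log2 fold change of 3.58 in LM1 and 6.92 in LM9 (3.06 and 6.40 without HR1_1, 4.32 and 7.66 without HR1_3). *Map4k4* was higher by 0.98 and 1.08 (0.79 and 0.88 without HR1_1), and *Il1r1* was at -0.46 and -0.72 (-0.45 and -0.72). *Il1rl1* was at -0.13 and -0.77, which became -0.70 and -1.35 without HR1_1 and 1.37 and 0.72 without HR1_3. *Il18rap* was at 0.75 and 1.06, and at 0.18 and 0.49 without HR1_1. The direction for *Il1rl1* thus turned on which HR1 tumour was counted, whereas the step of *Il18r1* was present with either left out.

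Levels per kilobase of exon were used to compare the receptor chains with each other. The ratio of *Il18rap* to *Il18r1* was 16.41, 39.59 and 25.29 in HR1, 4.075, 4.474 and 3.978 in LM1 and 0.5342, 0.4895 and 0.5087 in LM9. Transcripts of the partner chain were therefore in excess of those of the binding chain in HR1 and LM1, and those of the binding chain exceeded them in LM9. The counts do not give protein levels. *Il1rl1* exceeded *Il18r1* by 123.7, 278.3 and 535.0 times in HR1, 28.74 to 35.91 times in LM1 and 1.917 to 2.274 times in LM9. The ratio of *Il1rl1* to *Il18rap* varied less, from 3.622 (LM9_1) to 21.15 (HR1_3), and HR1_1 (7.537) lay beside HR1_2 (7.029) and LM1_1 (7.052) although both genes were far lower there. The HR1_1 ratios to *Il18r1* rest on its single count.

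**Figure D4:**
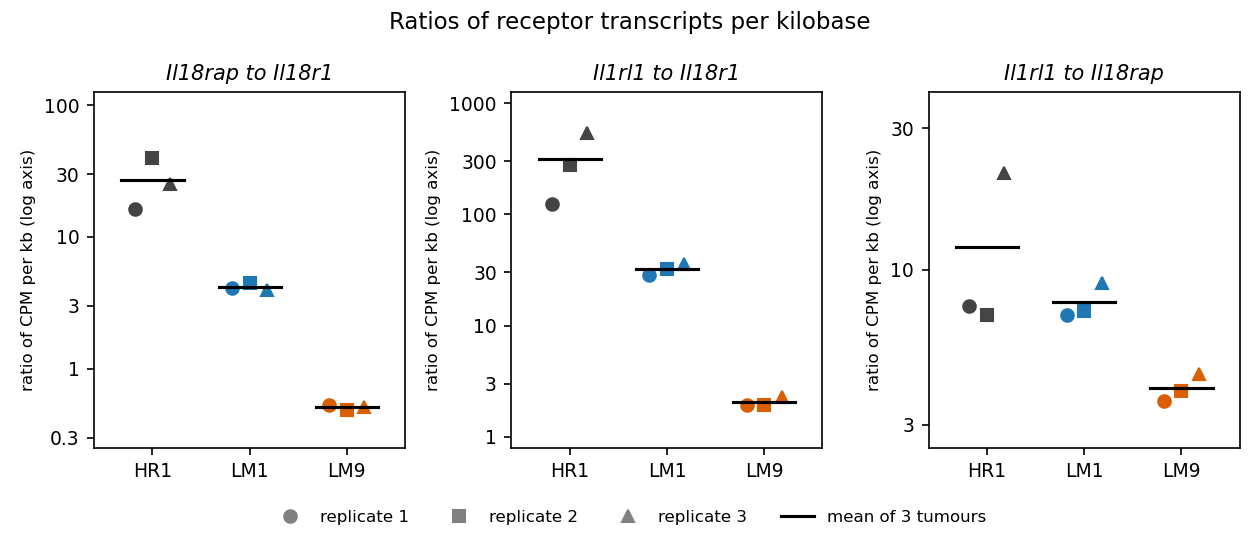
Ratios of normalized expression per kilobase between the receptor genes in each tumour (points, log axes with a scale of their own), with the mean of a model's 3 tumours as a line. *Il18rap* to *Il18r1* falls from 16.41 to 39.59 in HR1 to 3.978 to 4.474 in LM1 and 0.4895 to 0.5342 in LM9.

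Cell types known for these receptors were checked by their markers, since GFP-sorted cells can include others. In bulk samples, fewer cells of a type and less RNA per cell cannot be told apart. Of 9 mast cell and basophil markers 7 were counted, with sums of 41.16, 56.67 and 40.99 CPM in HR1, 25.75 to 28.63 CPM in LM1 and 17.45 to 20.44 CPM in LM9. The mast cell proteases were found mainly in HR1. *Tpsb2* was at 16.33, 25.06 and 10.68 CPM there and at most 0.508 CPM in LM tumours, *Cpa3* at 5.893 to 9.118 and at most 0.2794 CPM, and *Mcpt4* at 7.182 to 8.375 and at most 0.2025 CPM. *Ms4a2* was at most 0.4503 CPM in HR1 and at 0 in all LM tumours, whose sums came from *Kit*, *Hdc* and *Tpsab1*. Of 9 NK and innate lymphoid markers 5 were counted, with sums of 17.81 to 35.44 CPM in HR1, 17.17 to 23.85 CPM in LM1 and 11.01 to 15.08 CPM in LM9. These came mostly from *Gata3*, and *Ncr1*, *Nkg7* and *Prf1* were not among the counted genes. Of 5 T cell markers only *Cd4* was counted, at 0.669 to 5.831 CPM in HR1, 0.02265 to 0.5842 CPM in LM1 and at most 0.1288 CPM in LM9. Both the mast cell and the NK and innate lymphoid sums were lower in LM9 than in LM1, but their genes did not move together. *Kit* fell from 17.04 to 18.96 CPM in LM1 to 1.013 to 6.043 CPM in LM9, while *Hdc* (2.464 to 3.239 and 5.731 to 8.663 CPM) and *Tpsab1* (4.411 to 6.553 and 7.062 to 9.406 CPM) were higher in LM9, and so was *Il7r* (0.168 to 0.4077 and 0.6638 to 1.202 CPM). The part of these cells in the *Il18r1* difference was not tested.

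The remaining lists moved in other ways. Leukocyte genes (6 of 6 counted) summed to 195.9, 267.7 and 62.48 CPM in HR1, 71.49 to 76.37 CPM in LM1 and 29.32 to 53.06 CPM in LM9, and HR1_3 was the lowest HR1 tumour. Macrophage genes (7 of 7) summed to 189.9 to 860.5 CPM in HR1, 136.5 to 153.9 CPM in LM1 and 169.0 to 195.7 CPM in LM9. The higher sum in LM9 came from *Cd68* alone (15.88 to 17.86 CPM in LM1 and 107.4 to 138.1 CPM in LM9). *C1qa* (34.72 to 41.9 and 6.729 to 13.18 CPM), *Csf1r* (18.16 to 21.07 and 7.141 to 11.7 CPM) and *Lyz2* (26.72 to 30.12 and 9.156 to 17.47 CPM) were lower in LM9, as were *C1qb* and *Mrc1*, and *Adgre1* overlapped. Neutrophil genes (4 of 5) summed to 2.573 to 11.01, 15.79 to 21.90 and 8.492 to 14.11 CPM. Endothelial genes (5 of 6) summed to 5.507 to 25.73 CPM in HR1, 162.9 to 226.3 CPM in LM1 and 252.3 to 290.3 CPM in LM9, mainly through *Cdh5*, with *Pecam1* at most 1.246 CPM in the LM tumours. Only *Cdh5* was higher in LM9 than in LM1 without overlap (136.4 to 190.3 and 228.4 to 253.5 CPM). *Kdr*, *Pecam1* and *Vwf* overlapped, and *Emcn* was lower in LM9 (0.1586 to 0.3781 and 0.0225 to 0.1373 CPM). Epithelial genes (6 of 8) summed to 7.548, 35.23 and 121.4 CPM in HR1_1, HR1_2 and HR1_3, the order of *Il1rl1*, to 157.5 to 181.1 CPM in LM1 and to 14.45 to 17.97 CPM in LM9, mostly through *Krt14*. *Cdh5* and *Cd68* moved with *Il18r1* between LM1 and LM9, and the other endothelial and macrophage genes did not. The epithelial sum moved with *Il1rl1* within HR1 through *Krt14* (1.563, 31.43 and 108.9 CPM), *Krt5* (0.09975, 0.6304 and 10.65 CPM) and *Krt19* (0, 0.2927 and 0.8491 CPM). *Epcam* (4.489, 1.576 and 0.4374 CPM) and *Cdh1* (1.197, 0.6304 and 0.5404 CPM) ran in the reverse order. Among fibroblast genes, *Col1a2* (44.19, 1472 and 2725 CPM in HR1_1, HR1_2 and HR1_3) had the order of *Il1rl1* within HR1, and *Dcn*, *Lum* and *Pdgfra* had the reverse order. Between LM1 and LM9, *Pdgfra* rose (40.16 to 45.91 and 82.7 to 102.5 CPM), *Dcn*, *Lum* and *Col3a1* fell, and the others overlapped. The part of all these genes in the differences was not tested.

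The ligands of the receptors were abundant for *Il1rl1* and scarce for *Il1r1*. *Il33*, the alarmin bound by IL1RL1, was at 357.8, 120.8 and 258.3 CPM in HR1, 376.2, 412.2 and 405.2 CPM in LM1 and 840.2, 779.4 and 929.6 CPM in LM9. The LM9 tumours were above all others (65.4% of genes had no overlap for LM9 and LM1, and 54.9% for LM9 and HR1). HR1_2 was the lowest, and HR1_1, with the least *Il1rl1*, had the most *Il33* of the HR1 tumours. The log2 fold change of *Il33* was 1.09 ± 0.33 for LM9 over LM1 (edgeR adjusted p = 0.04246) and 1.79 ± 0.33 for LM9 over HR1 (adjusted p = 0.003447, 2.17 without HR1_1). LM1 over HR1 did not pass (0.70 ± 0.32, adjusted p = 0.1232) and passed without HR1_1 (1.08 ± 0.27, adjusted p = 0.007759). *Il18* was at 20.08, 7.767 and 15.10 CPM in HR1, 10.59, 9.604 and 11.91 CPM in LM1 and 20.37, 17.65 and 24.51 CPM in LM9. Its log2 fold change of 0.96 ± 0.32 between LM9 and LM1 did not pass (adjusted p = 0.05791), and passed without HR1_1 (adjusted p = 0.009661), as did LM9 over HR1 (0.54, and 0.87 ± 0.27 without HR1_1 with adjusted p = 0.02118). *Il1b* was between 1.106 CPM (HR1_3) and 12.87 CPM (LM1_2), and *Il1a* was at most 0.5251 CPM. Neither passed in any of the 3 comparisons, whose lowest edgeR adjusted p for them was 0.1348.

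The soluble inhibitors were higher in the LM tumours. *Il1rn*, the IL-1 receptor antagonist, was at 3.890, 11.48 and 4.169 CPM in HR1, 87.48, 88.07 and 101.6 CPM in LM1 and 29.24, 29.05 and 24.73 CPM in LM9, with no overlap between models (as for 46.6% of genes for LM1 and HR1, 54.9% for LM9 and HR1 and 65.4% for LM9 and LM1). It was higher than in HR1 by 3.82 ± 0.41 in LM1 (edgeR adjusted p = 0.000382) and by 2.08 ± 0.38 in LM9 (adjusted p = 0.003496), which became 4.52 and 2.78 without HR1_2, and lower in LM9 than in LM1 (-1.74 ± 0.38, adjusted p = 0.01415). *Il18bp*, which binds IL-18 in solution, was at 4.821, 2.567 and 2.007 CPM in HR1, 11.22, 10.44 and 10.08 CPM in LM1 and 27.73, 19.34 and 33.73 CPM in LM9. It rose in the same order of models as *Il18r1*, by 1.76 ± 0.34 in LM1 over HR1 (adjusted p = 0.004865, 2.21 without HR1_1) and by 1.35 ± 0.33 in LM9 over LM1 (adjusted p = 0.02197). The shared partner chain *Il1rap* was at 4.721, 37.19 and 2.547 CPM in HR1, 18.67 to 22.81 CPM in LM1 and 21.20 to 23.39 CPM in LM9. It was thus high in HR1_2 and low in both HR1_1 and HR1_3. Among the block genes *Map4k4* was also highest of HR1 in HR1_2, with a smaller spread. *Il1rap* passed in none of the comparisons (lowest adjusted p 0.5962). *Sigirr*, an inhibitory member of the receptor family, was at 0.2327, 3.265 and 9.212 CPM in HR1, 0.7351 to 1.245 CPM in LM1 and 7.985 to 8.583 CPM in LM9, with a log2 fold change of 3.14 ± 0.95 for LM9 over LM1 (adjusted p = 0.04622). It was at -2.19 in LM1 over HR1 (adjusted p = 0.09587), and at -2.74 without HR1_1, where it passed (adjusted p = 0.0004635), and at -0.93 without HR1_3 (adjusted p = 0.3879).

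**Figure D5:**
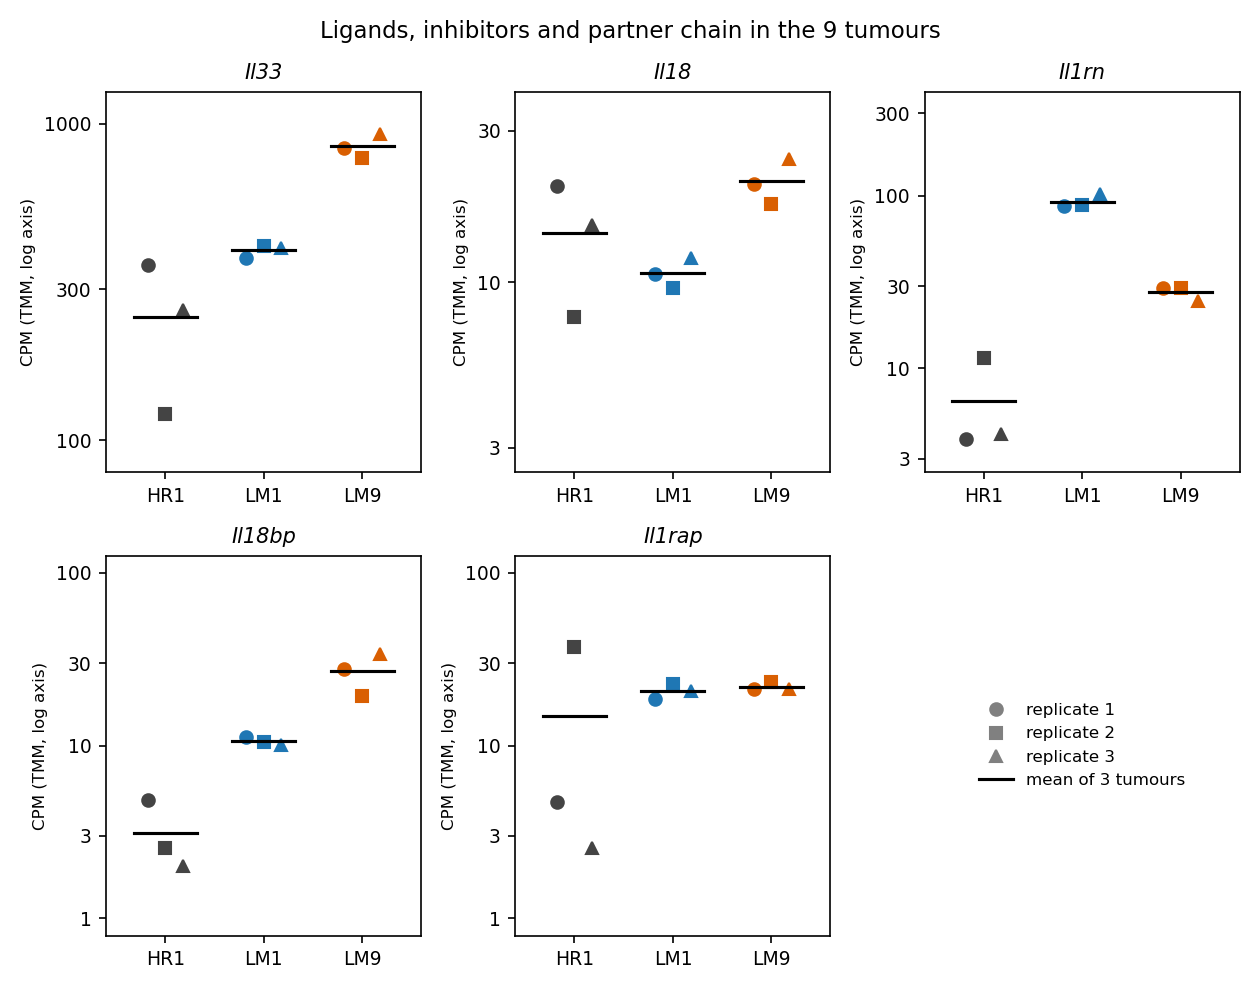
Normalized expression of ligands (*Il33*, *Il18*), soluble inhibitors (*Il1rn*, *Il18bp*) and the shared partner chain (*Il1rap*) in each tumour (points, CPM on log axes with a scale of their own), with the mean of a model's 3 tumours as a line. *Il33* is highest in LM9 (779.4 to 929.6 CPM), *Il1rn* is highest in LM1 (87.48 to 101.6 CPM), and *Il1rap* spreads from 2.547 to 37.19 CPM in HR1 while the LM tumours lie together.

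A list of 76 genes of the IL-1, IL-18 and IL-33 pathways outside the block was followed, of which 70 were tested. In LM9 against LM1 tumours, 14 were higher and 6 lower, 28.57% of the tested list, where 22.0% of all genes passed (11.5% higher, 10.6% lower). The count moved with single tumours, as did the share of all genes. It was 41 without HR1_1 (45.5% of all genes), 5 without LM1_3 (9.68%), 6 without LM1_1 (8.16%), 7 without LM9_1 (8.51%), 8 without LM9_2 (10.3%) and 8 without LM9_3 (9.84%). Against HR1, 22 list genes were higher and 7 lower in LM1 (41.43% of the list; of all genes 35.5%, 16.7% higher and 18.7% lower), and 31 were higher and 6 lower in LM9 (of all genes 42.3%, 20.4% higher and 21.9% lower). Without HR1_1 these became 30 and 12 in LM1 (52.8% of all genes) and 38 and 11 in LM9 (55.7% of all genes). The median log2 fold change of the list was 0.47 in LM1 and 0.66 in LM9 over HR1, against -0.04 and -0.05 for all genes, and 0.21 in LM9 over LM1, against 0.00.

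Of the 18 calls named here for LM9 over LM1 among genes outside the block, 6 (*Aim2*, *Map3k8*, *Saa3*, *Icam1*, *Map4k3* and *Map2k7*) held under every alternative. The other 12 (*Il1rn*, *Il18bp*, *Il33*, *Sigirr*, *Pycard*, *Cxcl1*, *Map4k2*, *Tnik*, *Slc9a4*, *Slc9a2*, *Rnf149* and *Cnot11*) kept their direction and missed the threshold of 0.05 with some single LM tumour left out, each of the 6 deciding at least 1 call, and *Sigirr* also without HR1_2, with adjusted p up to 0.1497. Of these 12, *Il33*, *Sigirr*, *Pycard*, *Map4k2*, *Tnik* and *Slc9a2* also missed it with all tumours kept, under 1 or 2 other settings each. Of the 36 calls of the named genes against HR1, 28 held throughout, and none was lost without HR1_1. The 8 others were *Nlrc4* and *Map2k7* in both models, *Pycard*, *Csf2* and *Map3k1* in LM1 and *Tnik* in LM9, with adjusted p up to 0.148 when a tumour was left out or another setting was used.

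The adaptors and kinases that act below the receptors gave 8 higher and 1 lower of 19 in LM9 over LM1 (47.37%, against 22.0% of all genes), with a median log2 fold change of 0.60, and 12 higher and 3 lower without HR1_1 (45.5% of all genes). *Map3k8*, a MAP kinase kinase kinase that the IKK complex activates, rose from 1.648 ± 0.355 CPM (SD, n = 3) in LM1 to 6.177 ± 1.230 CPM in LM9 (log2 fold change 1.90 ± 0.36, edgeR adjusted p = 0.008173). Against HR1, 2 were higher and 2 lower in LM1 (21.05%, against 35.5% of all genes), and 7 were higher and 2 lower in LM9 (47.37%, against 42.3%). Without HR1_1 these became 4 and 4 in LM1 and 10 and 3 in LM9, where 52.8% and 55.7% of all genes passed. Of the 12 NF-κB subunits and inhibitors, 7 were higher and 1 lower in LM1 than in HR1 (66.67%), 7 were higher and 0 lower in LM9 than in HR1 (58.33%), and 1 was higher and 1 lower in LM9 than in LM1 (16.67%), beside the same shares of all genes. Without HR1_1 these became 9 and 2, 7 and 2, and 3 and 3. Among 9 genes of ligand processing, the DNA sensor *Aim2* was higher in LM9 than in LM1 (3.55 ± 0.49, adjusted p = 0.002612), and the inflammasome adaptor *Pycard* was lower in LM1 than in HR1 (-1.71 ± 0.46, adjusted p = 0.02023, and -1.41 without HR1_1) and lower again in LM9 than in LM1 (-1.86 ± 0.48, adjusted p = 0.02604). *Nlrc4*, an inflammasome sensor, was lower in both LM models than in HR1 (-2.43 ± 0.70, adjusted p = 0.02548, in LM1, and -2.64 ± 0.71, adjusted p = 0.01687, in LM9). *Pycard* and *Nlrc4* are also expressed by macrophages, whose summed markers were highest in HR1_2, and the part of these cells was not tested.

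Of 20 genes that these receptors are known to induce, 11 were higher and 2 lower than in HR1 in LM1 (65.0%, against 35.5% of all genes), and the counts were the same in LM9 (42.3% of all genes). Without HR1_1 both became 12 higher and 3 lower, where 52.8% and 55.7% of all genes passed. In LM9 over LM1, 1 was higher and 2 lower (15.0%, against 22.0% of all genes), and 6 and 6 without HR1_1. The median log2 fold change was 2.12 in LM1 and 1.87 in LM9. *Cxcl1*, a neutrophil chemokine, was at 13.96, 9.366 and 8.646 CPM in HR1, 121.4, 189.3 and 79.78 CPM in LM1 and 303.0, 444.1 and 250.7 CPM in LM9, and rose in LM1 over HR1 (3.61 ± 0.38, edgeR adjusted p = 0.000349) and in LM9 over LM1 (1.35 ± 0.35, adjusted p = 0.02566). *Csf3*, which encodes G-CSF, had 0, 0 and 1 count in HR1, against 127 to 203 counts in LM1 and 32 to 87 in LM9. Relative to 3 counts per HR1 tumour it was at least 45.93-fold higher in LM1 and at least 18.36-fold higher in LM9. *Csf2*, which encodes GM-CSF, was at 0.1104 ± 0.1721 CPM (SD, n = 3) in HR1, 1.663 ± 0.635 CPM in LM1 and 3.703 ± 1.278 CPM in LM9.

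Among the response genes, *Saa3* and *Icam1* were lower in LM9 than in LM1. *Saa3*, an acute-phase gene, was at 0.7980, 0.2927 and 0.05146 CPM in HR1, 23.82, 13.39 and 17.91 CPM in LM1 and 0.8157, 1.099 and 0.5401 CPM in LM9, and was lower in LM9 than in LM1 (-4.48 ± 0.73, edgeR adjusted p = 0.004761). *Icam1*, a leukocyte adhesion molecule, was at 2.624 ± 1.695 CPM in HR1, 14.02 ± 2.45 CPM in LM1 and 1.482 ± 0.440 CPM in LM9 (-3.24 ± 0.49 in LM9 over LM1, adjusted p = 0.003664). *Lcn2*, an iron-binding acute-phase protein, was at 0.9293 ± 0.7323 CPM (SD, n = 3) in HR1, 30.77 ± 2.90 CPM in LM1 and 9.366 ± 2.745 CPM in LM9, and its log2 fold change of -1.72 ± 0.55 in LM9 over LM1 did not pass (edgeR adjusted p = 0.05583, and 0.0175 without HR1_1). LM9 tumours, which had the most *Il18r1* and *Il33*, thus had lower *Saa3* and *Icam1* than LM1 tumours and higher *Cxcl1*. The matrix metalloproteinases fell against HR1. *Mmp3* was at 252.3, 574.7 and 73.39 CPM in HR1 and at most 6.249 CPM in LM tumours, and *Mmp13* was at 34.88, 129.3 and 464.1 CPM in HR1 and at most 3.709 CPM in LM tumours (log2 fold changes of -6.09 to -8.87 with adjusted p of at most 0.001678 in the edgeR fit, and of -6.20 to -9.37 without HR1_1). Without HR1_3, *Mmp13* was at -4.94 in LM1 and -7.52 in LM9, and without HR1_2, *Mmp3* was at -5.21 and -6.88. *Mmp13* was highest in HR1_3 and lowest of the HR1 tumours in HR1_1, the order of *Il1rl1*.

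*Map4k4* was set beside 16 genes of its kinase family and of the kinases it is known to act on. In LM9 over LM1, 3 were higher and 1 lower (25.0%, against 22.0% of all genes), and 8 and 1 without HR1_1 (45.5% of all genes). *Map4k3*, a related kinase, rose from 22.75 ± 3.77 CPM (SD, n = 3) to 42.65 ± 6.41 CPM (0.91 ± 0.17, edgeR adjusted p = 0.008182). *Map4k2* rose from 8.732 ± 1.465 to 22.37 ± 3.59 CPM (1.36 ± 0.38, adjusted p = 0.03477), and *Map2k7*, which activates JNK, from 35.48 ± 2.13 to 66.06 ± 8.22 CPM (0.90 ± 0.13, adjusted p = 0.003228). *Tnik*, of the same kinase subfamily as *Map4k4*, fell from 0.5576 ± 0.0319 to 0.02276 ± 0.02289 CPM (adjusted p = 0.04338). Against HR1, 1 was higher and 4 lower in LM1 (31.25%, against 35.5% of all genes), and 5 were higher and 2 lower in LM9 (43.75%, against 42.3%). Without HR1_1 these became 3 and 6 in LM1 (52.8% of all genes) and 6 and 5 in LM9 (55.7%). *Mapk9* (JNK2) was lower than in HR1 in both LM1 (-0.67 ± 0.11, adjusted p = 0.002650) and LM9 (-0.51 ± 0.11, adjusted p = 0.007212), and *Map3k1*, a JNK pathway kinase, was higher in both (1.67 ± 0.47, adjusted p = 0.02414, and 2.53 ± 0.49, adjusted p = 0.004066), by 2.31 and 3.17 without HR1_1. The Hippo kinase *Lats1* was higher in LM9 than in HR1 (0.77 ± 0.19, adjusted p = 0.01200), and the related kinases *Stk38* (-0.77 ± 0.16, adjusted p = 0.007355) and *Stk38l* (-1.60 ± 0.37, adjusted p = 0.01083, and -1.93 without HR1_1) were lower in LM1.

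Across the 9 tumours the block genes did not follow a single pattern. Pearson's r of log2 values was 0.94 between *Il1rl1* and *Il18rap* and -0.363 without HR1_1, so the first value described that tumour. *Il18r1* and *Il18rap* had r = 0.748, and 0.863 without HR1_1. *Il1r1* was negatively related to *Il18r1* (r = -0.793, and -0.782 without HR1_1) and to *Map4k4* (r = -0.671, and -0.611), while *Map4k4* and *Il18r1* had r = 0.87 (0.743). These are descriptions over 9 tumours of 3 models that share libraries.

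Outside the block, genes with a pattern close to the mean of the 5 standardized members included *Vav2* (r = 0.972), *Lamb3* (r = 0.971), *Hsp90aa1* (r = 0.969) and *Mthfd2* (r = 0.969), over 9 tumours and among 12372 genes. These 4 were lowest in HR1_1. *Spire2* had a pattern close to that of *Il1rl1* (r = 0.983). It was at 1.130, 6.529 and 10.81 CPM in HR1 and 5.448 to 9.200 CPM in the LM tumours, so it too was lowest in HR1_1 and highest in HR1_3. *Il18rap* was most like *Cpne8* (r = 0.995) and *Asns*, the asparagine synthetase gene (r = 0.991). *Il18r1* was most like *Map2k1*, which encodes the kinase MEK1 (r = 0.995), and *Kif20a*, a mitotic kinesin gene (r = 0.994). *Map4k4* was most like *Nol8* (r = 0.992) and *Actn4* (r = 0.989), and *Il1r1* was most like *Setd7* (r = 0.97) and *Spef1* (r = 0.958).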

How the data were processed

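Sorted GFP-positive cells of 9 tumours were profiled by RNA-seq. Per the methods, the authors used STAR for alignment to mm10 and qCount of QuasR to count 5′ read ends over the exon union of each gene. They deposited a whole-number count per Entrez gene and tumour, not normalized. The strand setting is not given in the sources used here. Every listed gene has at least 7 counts in its third-highest tumour. Models and replicate numbers came from the labels. Symbols were matched for 14085 of 14108 genes. Symbols and gene positions came from RefSeq (GRCm38.p6), and exon lengths and exon overlaps came from GENCODE (GRCm38).

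Counts were scaled by TMM (factors 0.9284 to 1.051) to CPM, counts scaled to the same library total. The main test was the edgeR 4.0.16 quasi-likelihood F-test in R 4.3.3 over 3 models of 3 tumours (filterByExpr, Benjamini-Hochberg over 14086 genes, threshold 0.05). DESeq2 1.42.0, limma-voom (limma 3.58.1), other size factors, filters, sample sets and a replicate block were alternatives. The fits were tested on simulated data. No 2 tumours of a model differed by as little as sampling noise (lowest mean chi-square per gene 32.3). Descriptive ratios used log2(CPM + 0.1). Counting intervals exclude PCR and biological variation. Python 3.11.15 was used for tables, plots and motif searches.

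The members, the lists and the tests were chosen with earlier results of these data known. Genes named are the members, the other genes between them, the 3 nearest expressed neighbours on each side, the 3 largest changes in each direction per list and comparison with the main ligands, inhibitors and partner chain, and the closest expression patterns, some of which are not reported here. *Slc9a4*, *Fhl2*, *Rfx8*, *Cnga3*, *4930594C11Rik*, the motifs and the comparison of HR1_1 were chosen after their values were seen.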

Additional observations from a re-analysis of the deposited data

Results flagged for a closer look

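The change of *Il18r1* against HR1 differed between the LM models. LM9 exceeded LM1 by a log2 fold change of 3.34 ± 0.66 (SE, 3 tumours each, edgeR adjusted p = 0.01031), and all 3 LM9 tumours were above all 3 LM1 tumours (65.4% of genes had no overlap between LM9 and LM1). Both changes share the HR1 tumours, which cancel in the size of this difference but not in its SE and adjusted p. With only the 6 LM tumours it was 3.33 ± 0.13.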

How the results depend on the processing

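For LM9 against LM1, *Il18r1* kept its direction in each of the 17 alternatives, with log2 fold changes of 3.28 to 3.35 under other settings and 3.23 to 3.40 with 1 tumour left out, where it missed the threshold without LM1_1 (3.32, edgeR adjusted p = 0.05659). With only the 6 LM tumours *Il1rl1* passed (-0.65), and with 1 tumour left out it ranged from -0.85 to -0.51. *Map4k4* ranged from -0.07 (without LM1_3) to 0.27. The pathway count was 48 with only the 6 LM tumours (56.3% of all genes) and 5 to 41 with 1 tumour left out (8.16% to 45.5% of all genes). The counts for LM1 and LM9 over HR1 stayed within 1.5 times the main count under each alternative. The replicate numbers share only a number: 2 of 9 same-numbered pairs had a correlation of deviations over 0.1 (-0.131 to 0.289). With a replicate block, *Il18r1* was at 3.33 (adjusted p = 0.02387), and 6 of the other named LM9 over LM1 calls (*Il33*, *Sigirr*, *Pycard*, *Map4k2*, *Tnik*, *Slc9a2*) missed the threshold. HR1_3 against the 8 other tumours gave -0.67 for *Map4k4*, 0.66 for *Il1r1* and -2.66 for *Il18r1*, and 1 neighbour at least 2-fold higher. With 1 HR1 tumour left out, *Map4k4* ranged from -0.27 to 0.58 and the neighbours from 0 to 2. For HR1_1, an alternative chosen after seeing the data, *Il1r1* was at 0.01 with RLE size factors, 0.44 against the 8 others, and -0.20 to 0.19 with 1 HR1 tumour left out. Against the 8 others *Map4k4* was at -1.33 and *Il18r1* at -7.04, and a pseudocount of 1 CPM gave -1.25 for *Il18r1*, whose HR1 levels are near 1 CPM. Other causes were not tested. Depth limits *Il18r1* in HR1, with 1 to 73 counts per tumour.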
